A study of Mus musculus with 9 samples.

Results

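Lysophosphatidic acid (LPA) was compared with its vehicle in primary cultures of mouse brown fat. The comparison takes the 3 arrays labelled LPA and the 3 labelled control, 6 of the 9 arrays in the series, and the choice rests on the sample titles and on no measured value. The remaining 3 arrays came from cultures given 2.5 µM HA155, an inhibitor of autotaxin, the secreted enzyme that makes LPA. All 9 cultures were grown from the precursor cell fraction of interscapular brown fat of male C57BL/6 mice of 5 weeks, took insulin raised in steps from 50 through 100 to 200 nM, and were collected at about 9 days in vitro. LPA cultures had 1-oleoyl-LPA at 5 µM and control cultures dimethyl sulfoxide. The labels place the treatment at 9 days in vitro while the design text places it during differentiation, so how long the cells met LPA is not settled. Each array carries its own subject number, and p-values rest on the spread between cultures within groups, pooled over all 3 groups.

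LPA is a small lysophospholipid that binds a family of G protein-coupled receptors on the cell surface. Through their G proteins these receptors remodel the actin cytoskeleton, to which the transcription factors SRF and YAP respond. Through Gi and Gq they act on cyclic AMP, calcium and the ERK kinases, which induce early response genes such as Egr1 and Fos. Brown adipocytes mature from fibroblast-like precursors by filling with lipid droplets and mitochondria under the factors Pparg and the C/EBP proteins.

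Levels are log2 of the deposited array intensity, and a difference of 1 on this scale is 2-fold. Of 13335 genes above the intensity filter, 1621 rose and 1445 fell in LPA against control (limma on all 9 arrays, Benjamini-Hochberg adjusted p under 0.05), which is 12.2% and 10.8% of the genes tested. By at least 1 on the log2 scale, 30 genes rose (0.225%) and 119 fell (0.892%). The median change over all genes tested was 0.0052. In 17.5% of genes all 3 LPA arrays lay above all 3 control arrays, and in 15.6% all 3 lay below. A rank test over 3 against 3 arrays could not go below an exact p of 0.1, so calls rest on the fit across all genes.

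**Figure D1:**
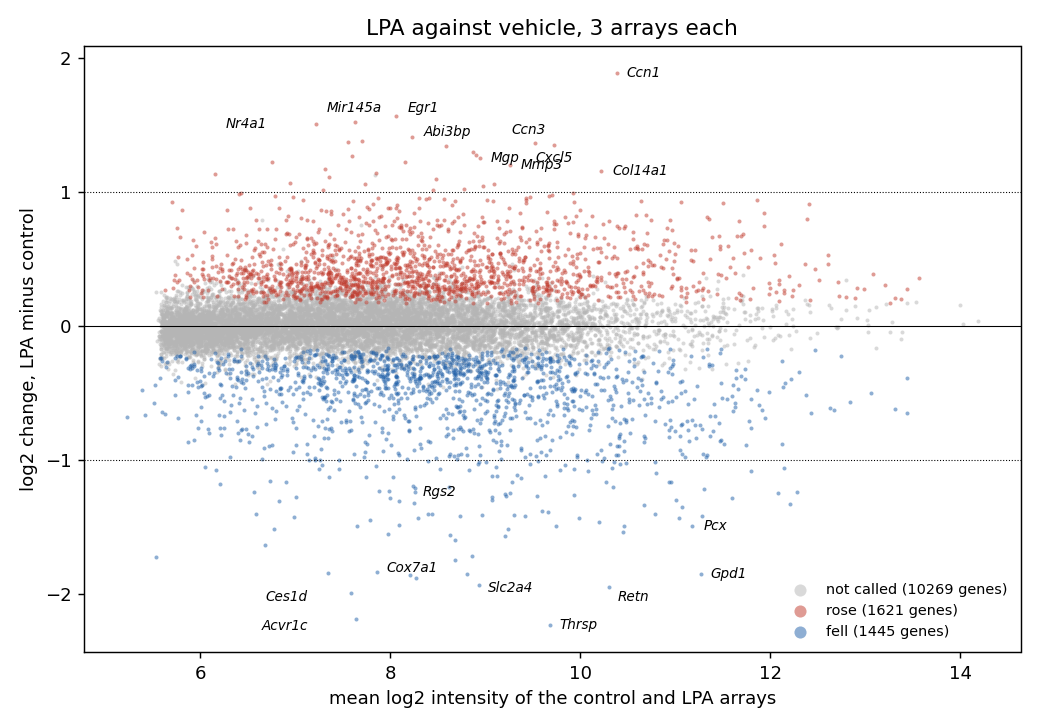
Log2 change in LPA minus control (y axis) against the mean log2 intensity of the 6 arrays (x axis), 1 point per gene tested, red where the gene rose and blue where it fell. The falls reach -2.23 (Thrsp) while the rises stop at 1.88 (Ccn1), and the dotted lines at 1 and -1 leave 119 called genes below and 30 above.

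The label of brown adipocyte cultures was set against marker genes. Of the mature adipocyte markers 11 passed the intensity filter, and Adipoq, the hormone adiponectin, stood at 11.70, 11.70 and 11.84 in the control arrays. The brown fat genes Ucp1, Cidea and Dio2 were below the filter level of 5.59 in the control mean, at 5.22, 4.92 and 5.14, so the heat-producing state that Ucp1 marks was not seen at the RNA level in the controls. LPA left them there, with means of 5.17, 4.75 and 5.12. Cox7a1 and Cox8b, subunits of the respiratory chain that brown fat favours, were clearly measured and are described with the mitochondrial genes. In the whole list of brown fat thermogenic genes 20 were tested, with a median change of -0.11. Of these 5 fell and 3 rose (25.0% and 15.0%, against 10.8% and 12.2% over all genes). Zic1, of the same list, had a mean of 7.00 in control and 7.43 in LPA.

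One LPA array, that of subject 8, stood apart from the other LPA arrays. It differed from their mean by over 0.5 in 382 genes, against 55 and 71 genes for subjects 7 and 9 and 35 to 44 for each control array. Among the 54 small nuclear, nucleolar and other short structural RNAs tested, 34 were higher in it than in both other LPA arrays, with a median difference of 0.26. Snora74a stood at 9.54 in subject 8 against 7.36 and 7.32 in the other LPA arrays. Where a list's count moved by over 1.5 times without it, both counts are given.

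The LPA receptors themselves came first. Of 11 genes for LPA receptors and LPA-handling enzymes tested, 5 rose and 2 fell, with a median change of 0.15. Lpar1, the receptor most widely found on fibroblasts, stood at 8.65, 8.53 and 8.54 in control arrays and at 9.19, 9.32 and 9.22 in LPA arrays. No LPA array reached down to the controls, and the difference was 0.67 ± 0.07 (SE, 3 arrays each; limma, adjusted p = 7.89e-05). Lpar6 moved the other way, from 8.49, 8.54 and 8.39 in control to 8.14, 7.90 and 8.13 in LPA, a change of -0.41 ± 0.07 (limma, adjusted p = 0.00188). Lpar2 and Lpar4 differed by 0.11 and 0.02 and did not pass the test, and Lpar3 was below the filter. Plpp1 and Plpp3, membrane phosphatases that remove the phosphate of LPA at the cell surface, rose by 0.55 and 0.46, and Pla1a, a phospholipase, by 0.33, while Acp6, a mitochondrial LPA phosphatase, fell by 0.47.

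The relay downstream of the receptors held calls at shares near those over all genes, with a few members far out. Of 23 G protein subunits, 4 rose and 3 fell (17.4% and 13.0%, against 12.2% and 10.8% over all genes). The alpha subunits Gna12, Gna13 and Gnaq differed by -0.18, 0.03 and 0.11 without passing the test. Gnai1, an inhibitory alpha subunit that lowers cyclic AMP, was the exception, at 10.84, 10.84 and 10.88 in control and 9.97, 9.57 and 10.13 in LPA. Every LPA array was lower, by -0.96 ± 0.11 in the mean (limma, adjusted p = 0.00011), while its relative Gnai2 rose by 0.22. Of 9 RGS proteins, which switch G proteins off, Rgs2 fell by 1.19 and Rgs16 rose by 0.93 (11.1% each way), and the other 7 did not pass. Rgs2 was at 8.84 in each control array and at 7.58, 7.65 and 7.70 in LPA.

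Genes of the actin arm rose in part. In the list of SRF cofactors and actin cytoskeleton genes, 16 of 38 rose, 0 fell and the median was 0.21; without the LPA array of subject 8, 21 rose. SRF (Srf, 0.16) and its cofactor Mrtfa (0.18) did not pass. Tpm1, a tropomyosin that coats actin filaments, had the largest change of this list, from 9.67, 9.45 and 9.49 in control to 10.23, 10.48 and 10.24 in LPA. The arrays of the groups did not overlap, and the difference was 0.78 ± 0.09 (limma, adjusted p = 7.58e-05). Tpm2, Cnn2, Fhl2, Flnc and Actn1 rose by 0.59 to 0.68, and the smooth muscle actin Acta2 by 0.54, whereas vinculin (Vcl, -0.13) and Mylk (0.05) did not pass. Skeletal muscle markers moved with this group: 14 of 20 tested rose, 10 without the array of subject 8, and their mean level was 0.32 to 0.52 above the control mean in LPA arrays against -0.03 to 0.05 in control arrays. The defining regulators Myod1, Myog and Pax7 differed by -0.03, 0.02 and -0.03. They were dim, with control means of 6.30, 5.79 and 6.35 against the filter level of 5.59. What part muscle cells have in the actin result was not tested.

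SRF binds a short A and T rich site called the CArG box, so the stretch from 250 bases before to 50 after each annotated gene start was searched for it on both strands (RefSeq, GRCm38.p6; 10522 genes tested had such a window). It was found at 1.56% of all these genes, at 2.42% of those that rose (30 of 1242) and at 1.38% of those that fell (16 of 1160). In the SRF and actin list 6 of 33 genes with a window held one: Cnn2, Fhl2 and Myl9, which rose, and Fhl1, Srf and Vcl, which did not pass. The pieces below lie upstream of the start of genes that rose, with the box in capitals, and are shown to let the match be read directly.
Cnn2, chr10:79988532-79988565, + strand: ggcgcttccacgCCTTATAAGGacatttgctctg
Fhl2, chr1:43163971-43164004, - strand: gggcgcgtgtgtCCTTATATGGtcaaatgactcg
Myl9, chr2:156775291-156775324, + strand: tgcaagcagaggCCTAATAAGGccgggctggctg
Actc1, chr2:114052901-114052934, - strand: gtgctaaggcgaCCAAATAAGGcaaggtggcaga
Acta1, chr8:123894827-123894860, - strand: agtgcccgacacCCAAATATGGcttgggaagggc
Zfp36, chr7:28379265-28379298, - strand: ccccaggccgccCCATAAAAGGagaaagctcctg
Egr2, chr10:67537785-67537818, + strand: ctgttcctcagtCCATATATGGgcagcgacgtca
The box begins 56 bases before an annotated start in Cnn2, 31 in Fhl2, 161 in Myl9, 47 in Actc1, 73 in Acta1 and 58 in Zfp36, and the Egr2 piece precedes several annotated starts. Cnn2 and Myl9 encode a calponin and a myosin light chain, Actc1 and Acta1 muscle actins, and Fhl2 a LIM protein that binds SRF. Their changes were 0.64, 0.35, 0.76, 0.45 and 0.64. A match describes the letters only; binding was not measured. Overlap between motifs was not counted. For the other motifs, GGAATG, the TEAD site through which YAP acts, lay at 17.9% of genes that rose, 14.6% of those that fell and 14.4% of all, and the EGR site GCGNGGGCG at 14.2%, 12.2% and 12.1%. The cAMP response element TGACGTCA lay at 2.90%, 3.53% and 3.38% and the C/EBP site TTNCGNAA at 3.78%, 4.40% and 4.17%, in the same order. The PPAR direct repeat AGGTCANAGGTCA was found at 4 of all genes and at 0 called ones.

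Early response genes were among the largest rises. Of 29 tested, 14 rose, 1 fell and the median was 0.28. Egr1, a zinc finger factor that growth factors induce within minutes, was at 7.31, 7.31 and 7.21 in control and 8.73, 9.25 and 8.54 in LPA. Every LPA array exceeded every control, by 1.57 ± 0.15 in the mean (limma, adjusted p = 2.2e-05). Nr4a1, an orphan nuclear receptor, followed, at 6.55, 6.29 and 6.55 against 8.24, 7.83 and 7.83, a rise of 1.50 ± 0.11 (limma, adjusted p = 4.82e-06). Fos rose by 1.22, and Ier3, Ier2, Zfp36 and Egr2 by 0.97, 0.86, 0.82 and 0.78. Within the families the response was uneven: Egr3 (0.17), Fosb (0.12), Junb (0.23), Nr4a2 (0.06) and Atf3 (-0.16) did not pass. The list of ERK feedback inhibitors and related phosphatases split, with 4 of 22 rising (7 without the LPA array of subject 7) and 5 falling. Errfi1, an inhibitor of the EGF receptor, rose by 0.70 and Spry2 by 0.53, whereas the phosphatases Dusp10, Dusp4 and Dusp6 fell by 1.00, 0.79 and 0.22 and Spry4 by 0.45.

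Matricellular CCN proteins, of which Ccn1 and Ccn2 are known targets of YAP and TEAD factors, held the largest rise of all. Ccn1 was at 9.45, 9.30 and 9.59 in control and 11.28, 11.37 and 11.34 in LPA. That gap of 1.88 ± 0.09 (limma, adjusted p = 2.33e-07) exceeded the range within either group several times over. Ccn3 rose by 1.36, Ccn2 by 0.95, Ccn5 by 0.78 and Ccn4 by 0.58, while the factors Yap1 and Wwtr1 (TAZ) differed by 0.13 and 0.14 without passing. In their list of YAP, TEAD, Hippo and CCN genes 15 of 28 rose and 1 fell, including Tead1, Tead3, Lats2, Amot and Ankrd1 (rises of 0.33, 0.33, 0.32, 0.69 and 0.63).

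**Figure D2:**
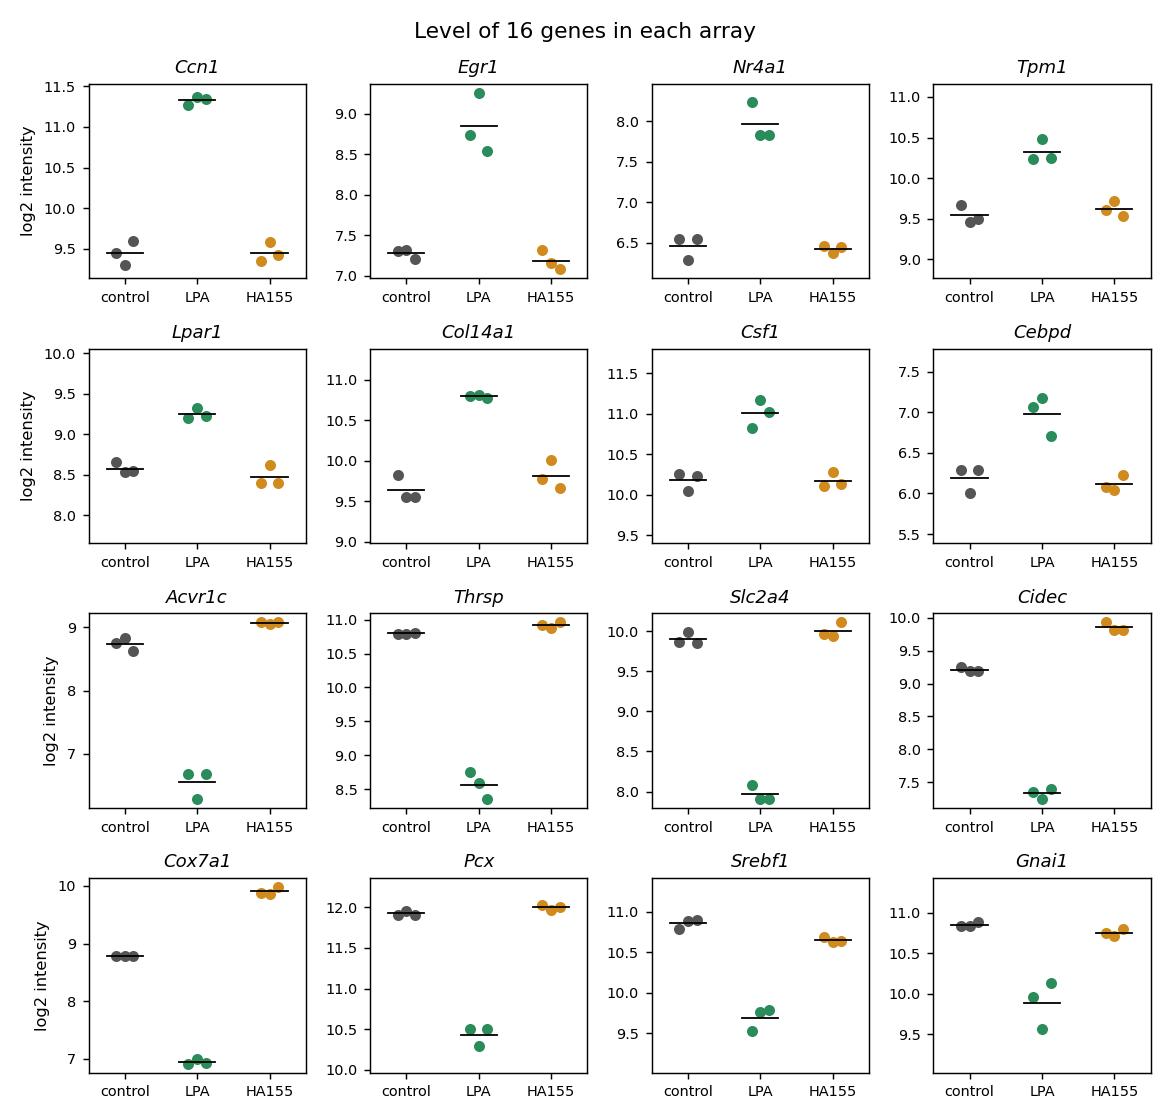
Log2 intensity (y axis) of 16 genes in each array, with 3 points per group and a line at the group mean; HA155 arrays are shown for reference. In each of the 16 panels the 3 LPA points lie apart from the 3 control points, above them for Ccn1 to Cebpd and below them for Acvr1c to Gnai1.

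Of 37 growth factors, 13 rose, 2 fell and 22 did not pass, with a median of 0.13. Those that rose include Csf1 (macrophage colony-stimulating factor, 0.83), Fgf7 (0.72), Ptn (0.65), Hgf (0.58) and Kitl (0.59), whereas Vegfa fell by 0.18. Igf1 (0.05) did not pass, but its receptor Igf1r rose by 0.65 and its binding protein Igfbp3 by 0.51. In the activin, inhibin and nodal list 12 of 21 rose. The single fall was the second largest of all genes: Acvr1c, which encodes ALK7, the activin type I receptor found in adipocytes, stood at 8.75, 8.84 and 8.63 in control and 6.67, 6.28 and 6.68 in LPA. The groups did not overlap, and the change was -2.19 ± 0.10 (limma, adjusted p = 2.38e-07). The broadly expressed type I receptors Acvr1b (ALK4) and Acvr1 (ALK2) rose by 0.52 and 0.42, as did Acvr2a (0.48), the ligand subunit Inhba (0.65) and the antagonist Fst (0.49).

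BMP and TGF-beta genes rose in 19 of 31 cases with 0 falls and a median of 0.30 (16 without the array of subject 8). The inhibitors of differentiation Id2 and Id3 rose by 0.76 and 0.59, and Tgfb3, Tgfbr2 and Tgfbi by 0.58, 0.43 and 0.64, whereas Id1 (-0.01) did not pass. In the Wnt list 16 of 41 rose and 0 fell. The 5 largest were those of the secreted antagonists Dkk3 (0.94), Sfrp1 (0.91), Sfrp2 and Sfrp4 (0.79 each) and the receptor Fzd1 (0.76). Wnt10b (-0.12), a ligand that holds back fat cell formation, did not pass, and neither did Axin2 (0.09), a common readout of beta-catenin. Notch genes (2 of 19 rose, 1 without the array of subject 8, and 2 fell) were close to the share over all genes. Ephrins and their receptors rose in 6 of 16 cases, led by Epha4 (0.82), and semaphorins, plexins and neuropilins in 8 of 28, with 4 falls. Of the semaphorin, plexin and neuropilin list, 4 rose in the fit on 6 arrays, 4 with array weights and 5 with either other filter. In the fits without control array 2 or 3, HA155 array 4 or the LPA array of subject 9, 3 to 5 rose.

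Matrix genes held many of the rises. Elastic fibre and matricellular proteins gave the highest share of rises of the lists used here, 30 of 36, with 2 falls (1 without the array of subject 8) and a median of 0.55. Abi3bp, Mgp (matrix Gla protein) and Fmod (fibromodulin) rose by 1.41, 1.25 and 1.10, and Tnc, Thbs1, Comp and Efemp1 by 0.84 to 0.95, while the proteoglycan Lum fell by 0.27 and Eln (-0.10) did not pass. Of 43 collagen chains 12 rose and 3 fell (5 without the array of subject 8), with a median of 0.05. Col14a1, a collagen that sits on the surface of fibrils, was at 9.82, 9.55 and 9.56 in control and 10.80, 10.81 and 10.77 in LPA. The LPA arrays lay close together and well above the controls, a rise of 1.15 ± 0.10 (limma, adjusted p = 1.07e-05). Col12a1, of the same fibril-associated kind, rose by 0.88, the main fibril chains Col1a1, Col1a2 and Col3a1 by only 0.36, 0.27 and 0.21, and the basement membrane chains Col4a1 and Col4a2 fell by 0.26 and 0.29. The largest collagen fall was that of the fibrillar chain Col5a3 (-0.45), and the basement membrane chain Col4a5 rose by 0.25. In the basement membrane list 2 of 15 genes rose, the laminin chains Lama2 (0.48) and Lamb2 (0.24). The 1 fall was that of Sgcd (-0.50), a sarcoglycan of the cell membrane that the list includes. The median was 0.06, and 13.3% rose and 6.67% fell, against 12.2% and 10.8% over all genes. For Lamb2 the arrays of the groups overlapped, and its call was lost in 9 of 18 alternatives, among them the fit on 6 arrays.

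Of 18 integrins, which are cell surface receptors for matrix, 8 rose and 2 fell, with a median of 0.17. Itga11, the integrin subunit that binds fibrillar collagen on fibroblasts, rose from 7.85, 7.79 and 7.86 to 8.66, 8.85 and 8.83. Itga6, a subunit that binds laminin, fell from 8.63, 8.68 and 8.82 to 7.77, 7.76 and 7.82. The changes were 0.95 ± 0.07 and -0.93 ± 0.08 (limma, adjusted p = 7.61e-06 and 1.24e-05), with no overlap of arrays in either. Itgb5, Itga5 and Itgav rose by 0.68, 0.60 and 0.53 and the laminin-binding Itga7 fell by 0.31. Among matrix proteases and inhibitors 10 of 19 rose, with Mmp3 (1.20), Mmp11 (1.06), Timp1 (0.79) and Timp3 (0.73) ahead, and lysyl oxidase (Lox, 0.67) and the prolyl hydroxylase P4ha3 (0.77) rose among 13 of 23 collagen-processing genes.

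Secreted inflammatory genes moved in both directions. Of 19 chemokines 9 rose and 1 fell: Cxcl5 (1.35), Ccl9 (1.27), Ccl7 (1.02) and Cxcl14 (0.88) rose, whereas Cxcl9, an interferon-induced chemokine, fell by 0.95. Il1rn, the interleukin 1 receptor antagonist, rose by 1.38 and the oncostatin receptor Osmr by 0.97, among 7 of 15 genes of the interleukin 1 and 6 families. Complement and acute-phase genes went both ways, with 9 of 25 rising and 7 falling. Orm1, Lcn2 and Orm2, acute-phase proteins, fell by 1.86, 1.49 and 0.87, while Ptx3, C2, C7 and C4b rose by 0.93, 0.74, 0.73 and 0.52. Of 15 macrophage markers listed, 10 passed the intensity filter. Among these 0 rose and 0 fell, and Csf1r and Cd68 differed by -0.02 and 0.19 (limma). At an unadjusted p under 0.05 and in the fit on 6 arrays the count was also 0. Csf1r, Cd14 and C1qa had control means of 5.68, 5.73 and 6.03, close to the filter level of 5.59, while Lyz2 stood at 8.09. With signal this dim, the counts say little about macrophages.

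On the adipocyte side, all 11 mature adipocyte markers fell, with a median of -1.43, with changes of -1.35 for adiponectin (Adipoq) and -1.95 for resistin (Retn). Their mean lay 1.35 to 1.38 below the control mean in every LPA array, with subject 8 in the middle of the 3. In cultured cells of mixed kinds, fewer adipocytes and less RNA per adipocyte cannot be told apart. Precursor and mesenchymal genes rose in 19 of 29 cases, with Thy1, Zfp521 and Pdgfrb up by 0.76, 0.72 and 0.70 and Pdgfra by 0.44. The 1 fall of this list, Mcam, a cell adhesion molecule also found on pericytes, was larger than any of its rises, at -0.96. Dlk1 rose by 0.25, but its adjusted p (limma, 0.0339) reached 0.15 among the alternatives and the call was lost in 8 of them. Of 38 cell cycle genes, 5 rose and 1 fell (13.2% and 2.63%, against 12.2% and 10.8% over all genes; 8 rose without the LPA array of subject 8, and 2 without that of subject 9 or control array 3). Mki67 (0.16) did not pass and the inhibitor Cdkn2c fell by 0.98.

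**Figure D3:**
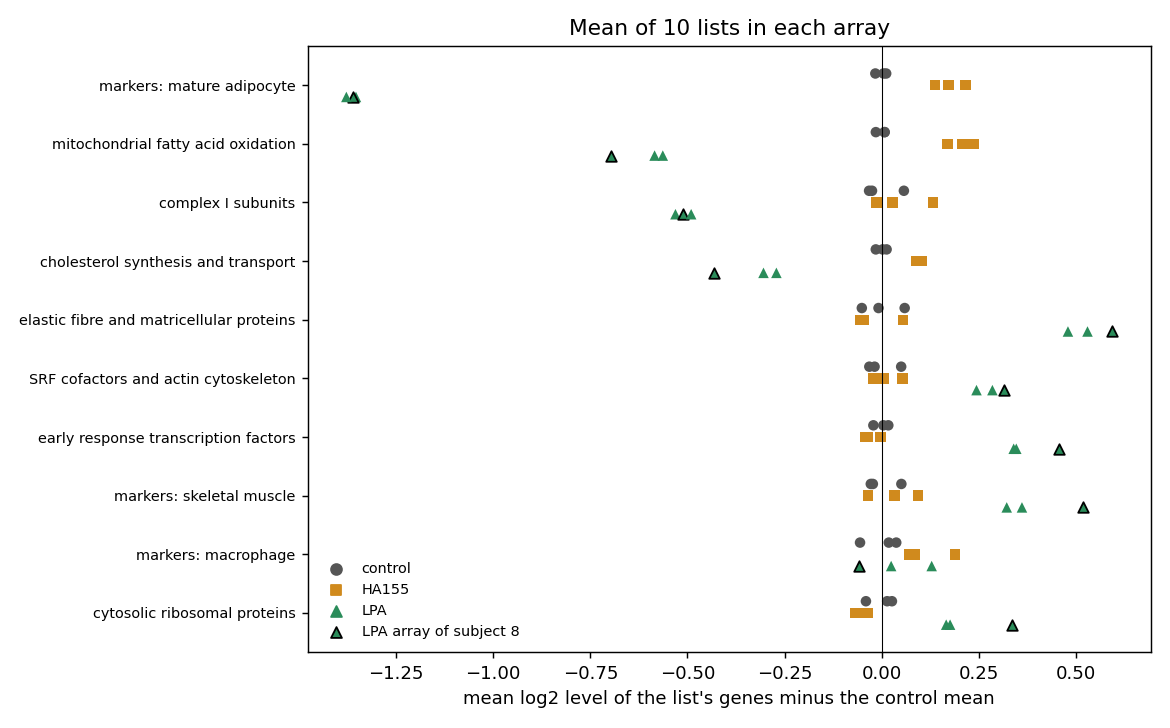
Mean log2 level of 10 gene lists in each array, minus the control mean (x axis), with the LPA array of subject 8 outlined in black. The 3 LPA arrays nearly coincide for adipocyte markers (-1.38 to -1.35), while subject 8 lies farthest out for skeletal muscle markers (0.52) and cytosolic ribosomal proteins (0.34). Subject 8 is also the farthest LPA array for fatty acid oxidation (-0.70), cholesterol (-0.43), elastic fibre (0.59), SRF (0.31) and early response genes (0.46).

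Transcription factors of fat cells moved in both directions. Of 43 tested, 13 fell and 7 rose (4 without control array 2), with a median of -0.02. These shares were 30.2% and 16.3%, against 10.8% and 12.2% over all genes. Srebf1, which drives fatty acid synthesis under insulin, was at 10.79, 10.89 and 10.89 in control and 9.53, 9.76 and 9.78 in LPA, a change of -1.16 ± 0.07 (limma, adjusted p = 1.59e-06) with no overlap. The liver X receptor Nr1h3 fell by 0.99 and the glucose-sensing Mlxipl and its partner Mlx by 0.79 and 0.70, more than the master regulators Cebpa (-0.58) and Pparg (-0.46). Members of the C/EBP family differed in direction: Cebpd, which acts early in fat cell formation, rose from 6.29, 6.00 and 6.29 to 7.07, 7.17 and 6.70, by 0.79 ± 0.12 (limma, adjusted p = 0.000644), whereas Cebpb (0.06) did not pass. Prdm16 (-0.23) and Ebf2 (-0.10), factors of brown fat identity, did not pass, and Ppargc1a, the inducer of mitochondrial growth, fell by 0.60.

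Lipid storage genes fell in most cases. Of 28 lipid droplet and lipolysis genes 18 fell and 1 rose, of 23 triglyceride synthesis genes 14 fell and 1 rose, and of 27 fatty acid synthesis genes 20 fell and 0 rose, with medians of -0.67, -0.50 and -0.62. Thrsp, a nuclear protein that tracks lipogenesis, had the largest fall of all genes, from 10.79, 10.79 and 10.81 to 8.75, 8.59 and 8.35. Each LPA array lay far below each control, by -2.23 ± 0.09 in the mean (limma, adjusted p = 1.44e-07). Falls were also large in the droplet genes Ces1d (-2.00), Cidec (-1.88) and Pnpla3 (-1.60), in the lipases Lipe (hormone-sensitive lipase, -1.50) and Pnpla2 (ATGL, -1.43), and in Gpd1 (-1.85) and Agpat2 (-1.33) of the glycerolipid route. Storage and breakdown genes fell side by side. Plin3, Rab18 and Aup1, droplet proteins found in many cell types, differed by 0.04, 0.14 and -0.07 and did not pass.

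In glucose uptake and glycolysis 9 of 24 genes fell and 4 rose. Slc2a4 (GLUT4), the insulin-dependent glucose transporter, went from 9.86, 9.99 and 9.85 to 8.08, 7.91 and 7.91, a change of -1.94 ± 0.07 (limma, adjusted p = 1.22e-07) with no overlap. Slc2a1 (GLUT1), the general transporter, rose by 0.28 (limma, adjusted p = 0.0471). Hexokinase Hk2 fell by 0.66 and Hk1 rose by 0.22; the branched-chain aminotransferase Bcat2 of mitochondria fell by 0.91 and the cytosolic Bcat1 rose by 0.46. Ogdh of the citric acid cycle fell by 0.72 while its relative Ogdhl rose by 0.46, and Agpat2 fell while Agpat4 rose by 0.32. These pairs were picked after their values were seen, and in other pairs both forms fell, as in the cytochrome oxidase subunits. Pfkfb3, which makes the activator of phosphofructokinase, changed by -1.42 and the enolase Eno2 by 0.68. Insulin signalling genes fell in 12 of 33 cases, with Pde3b at -1.12, Tbc1d4 at -0.96 and Insr, the insulin receptor, at -0.61; 6 rose, among them Cblb (0.62), but 3 rose without any 1 of control array 2, HA155 array 4 or the LPA arrays of subjects 8 and 9. Irs1 (-0.16) did not pass.

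In mitochondrial fuel oxidation most genes tested fell. In fatty acid oxidation 21 of 26 genes fell and 0 rose, with a median of -0.74, led by Eci1, Acadm and Acads (-1.03, -1.02 and -0.98). Cpt1a (0.13), the liver form of the entry enzyme, did not pass. In pyruvate entry 13 of 16 fell, among them the carrier Mpc1 (-1.01), the complex subunits Dlat, Pdhb and Pdha1 (-1.03, -0.96 and -0.73) and the kinases Pdk1, Pdk2 and Pdk4 that restrain the complex (-0.71, -0.63 and -0.66). The kinase Pdk3 and the activating phosphatase Pdp1 rose by 0.50 and 0.90. Pdp1 stood at 8.38, 8.12 and 8.09 in control and 9.10, 9.05 and 9.14 in LPA (limma, adjusted p = 1.62e-05), with a clear gap between the groups. Of 24 genes of branched-chain amino acid breakdown 20 fell.

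The citric acid cycle list fell in 19 of 24 cases, with a median of -0.69. Pcx, pyruvate carboxylase, which refills the cycle and supplies citrate for fat synthesis, was at 11.91, 11.96 and 11.91 in control and 10.50, 10.29 and 10.51 in LPA. The groups were far apart, at -1.50 ± 0.07 (limma, adjusted p = 2.33e-07). Citrate synthase (Cs) and Idh3a fell by 0.89 and 1.17, whereas mitochondrial Idh2 (-0.12) and Suclg2 (-0.20) did not pass. Peroxisomal genes fell in 25 of 40 cases, led by Pex11a, a factor of peroxisome division (-1.31), and the catalase gene Cat was among them (-0.69).

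**Figure D4:**
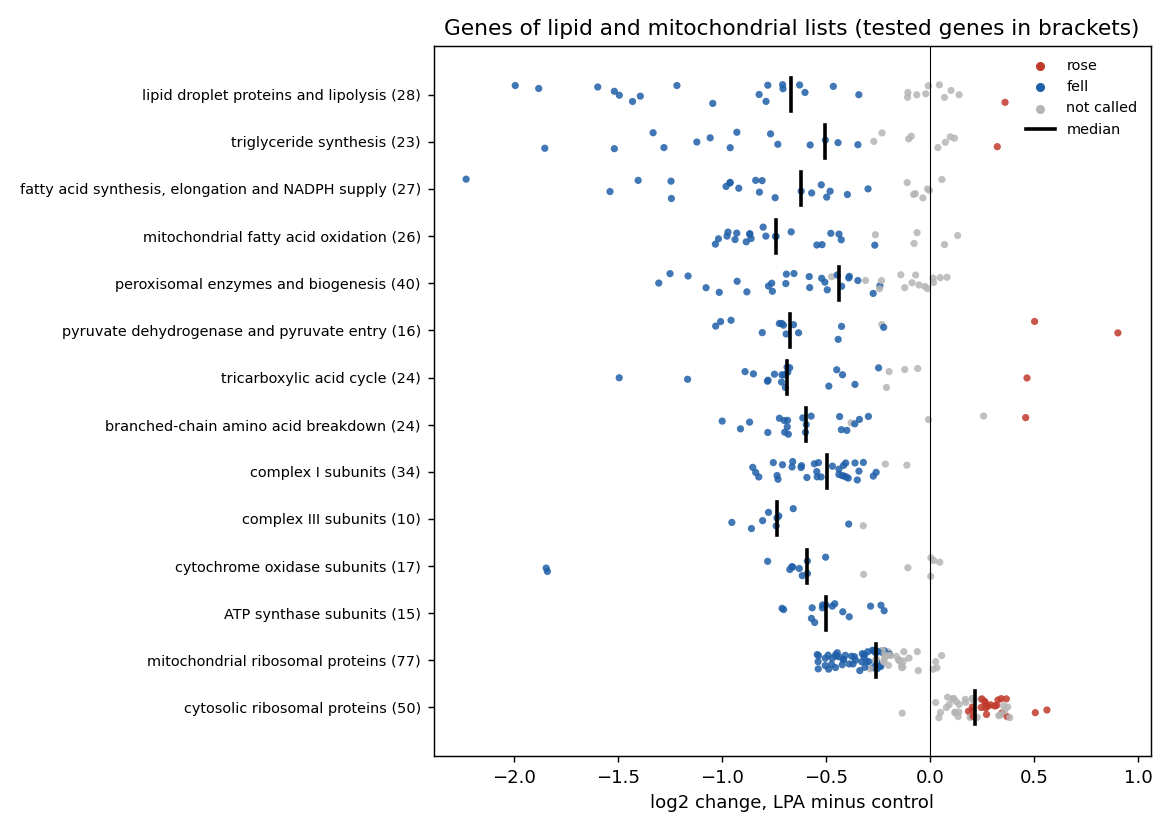
Log2 change (x axis) of each tested gene in 14 lipid and mitochondrial lists, blue where it fell, red where it rose, grey where it was not called, with a black bar at the list's median. Respiratory subunits cluster near medians of -0.74 to -0.50, mitochondrial ribosomal proteins near -0.26, and cytosolic ribosomal proteins lie on the other side at 0.22.

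Most subunits tested of complexes I and III, cytochrome oxidase and ATP synthase fell. For complex I 32 of 34 subunits fell, with a median of -0.50 and a range from -0.85 (Ndufb9) to -0.11 (Ndufa7, not called). For complex III 9 of 10 fell (median -0.74), for cytochrome oxidase 11 of 17 (median -0.59) and for ATP synthase 15 of 15 (median -0.50). The 2 largest falls of cytochrome oxidase were those of tissue-restricted subunits. Cox7a1, the form of heart, muscle and brown fat, was at 8.78 in each control array and at 6.91, 6.99 and 6.93 in LPA, and its widespread sister Cox7a2 went from 9.51, 9.76 and 9.71 to 9.09, 9.01 and 8.84. The changes were -1.84 ± 0.06 and -0.68 ± 0.09 (limma, adjusted p = 4.71e-08 and 0.000207). Cox8b and Cox8a repeated the contrast, at -1.85 and -0.50. Equal values in all 3 arrays, as for Cox7a1, occurred in 175 genes of the control group and were left as deposited, and the fit borrows spread from other genes there.

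The mitochondrial translation machinery fell less and the cytosolic one rose. Of 77 mitochondrial ribosomal proteins 48 fell and 0 rose, with a median of -0.26. Of 50 cytosolic ribosomal proteins 21 rose and 0 fell, with a median of 0.22, but only 8 rose in the fit on the 6 arrays and 9 without control array 2; the mean of this list was 0.34 above the controls in the LPA array of subject 8 and 0.18 and 0.17 in the others. Outer and inner membrane import genes fell in part, as Tomm40 (-0.50) and Timm23 (-0.43) show, while Tfam (-0.05) and Nrf1 (0.03), regulators of mitochondrial gene expression, did not pass. Mitochondrial carriers fell in 16 of 38 cases, led by the dicarboxylate carrier Slc25a10 (-1.34), and 4 rose by 0.40 to 0.46. The adenine nucleotide carrier Slc25a5 fell by 0.54 and Slc25a4 (-0.04) did not pass.

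**Figure D5:**
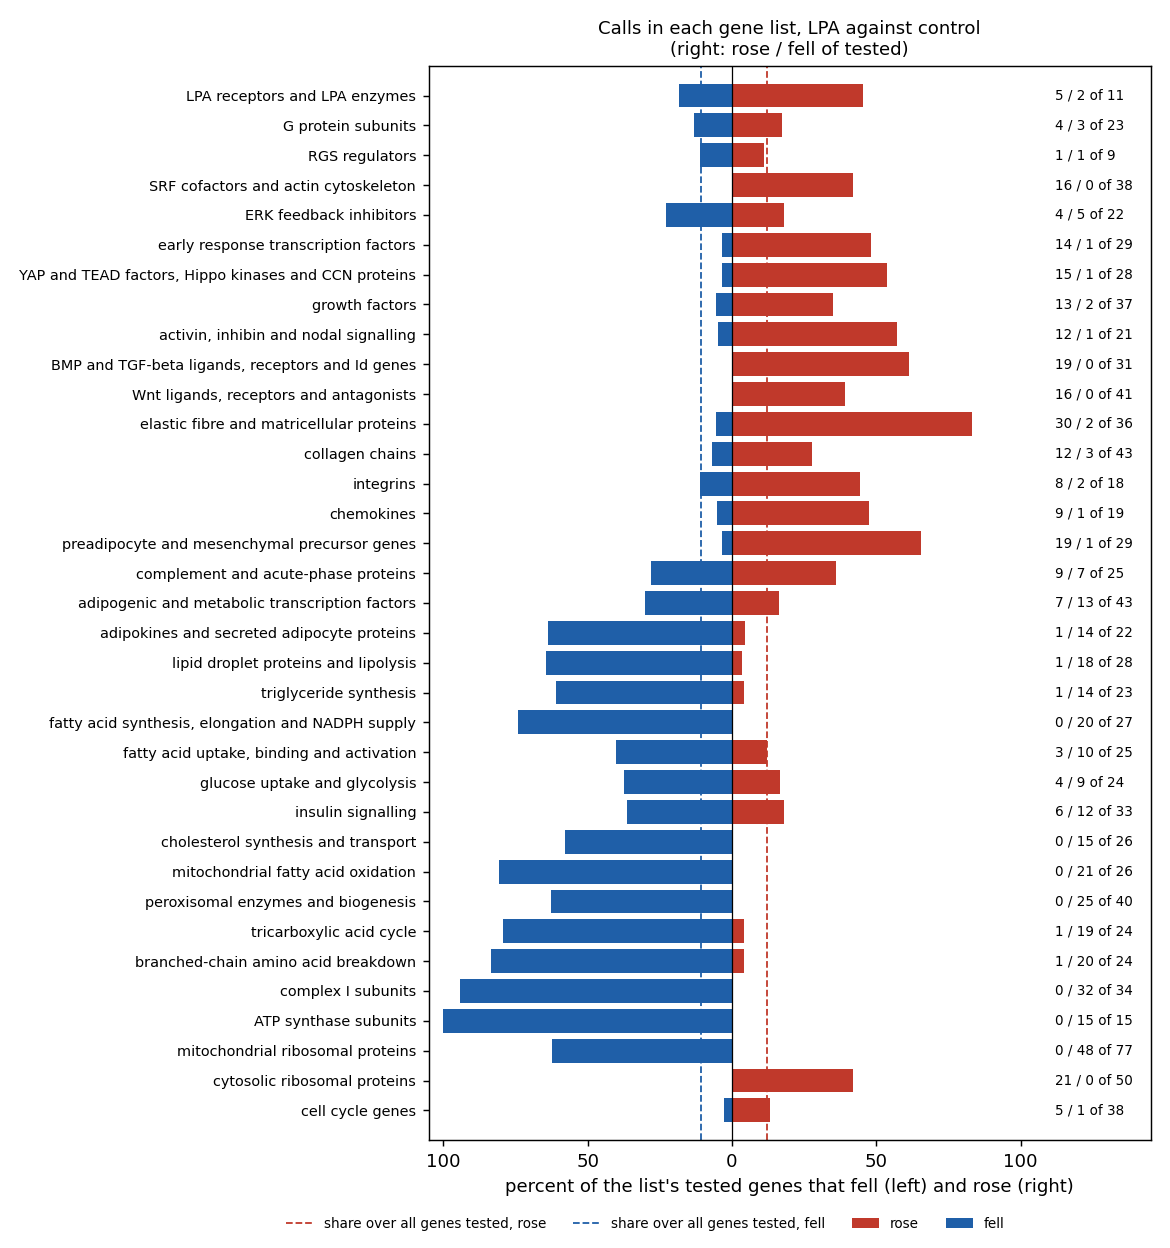
Percent of tested genes that rose (red, right) and fell (blue, left) in 35 gene lists, with counts at the right edge and dashed lines at the shares over all genes tested (12.2% rose and 10.8% fell). Growth factor, matrix and most signalling lists extend mainly to the right, lipid and mitochondrial lists to the left. RGS regulators are even (11.1% each way). ERK feedback inhibitors (18.2% rose, 22.7% fell) and insulin signalling (18.2% and 36.4%) extend more to the left. For cell cycle genes 13.2% rose and 2.63% fell.

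Of 111 microRNA precursor genes 11 rose and 2 fell (9.91% and 1.80%, against 12.2% and 10.8% over all genes), with a median of -0.0024. Mir145a and Mir143, microRNAs of smooth muscle that are made from one transcript, rose by 1.52 and 0.72. Mir145a was at 6.86, 6.72 and 7.01 in control and 8.13, 8.58 and 8.45 in LPA, with no overlap (limma, adjusted p = 7.62e-06). Another 4 lie in the imprinted microRNA cluster of chromosome 12, where 4 of the 10 genes tested between chr12:109712508-109743236 (RefSeq, GRCm38.p6) rose, 0 fell and 9 were above 0, with a median of 0.27 against -0.0066 for the 80 other microRNA genes that matched RefSeq. Over the whole list 6 rose without control array 2, 5 fell without control array 1 and 4 fell without the LPA array of subject 8. Mature sequences of called genes are shown, 1 arm each, with the seed of bases 2 to 8 in capitals, so that the seeds can be compared; the array does not tell arms apart.
miR-382-5p (chromosome 12, rose): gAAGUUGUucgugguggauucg
miR-329-3p (chromosome 12, rose): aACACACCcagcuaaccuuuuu
miR-679-5p (chromosome 12, rose): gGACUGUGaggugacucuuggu
miR-668-3p (chromosome 12, rose): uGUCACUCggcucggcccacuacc
miR-99a-5p (chromosome 16, rose): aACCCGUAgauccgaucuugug
let-7c-5p (chromosome 16, rose): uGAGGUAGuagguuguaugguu
miR-125b-5p (chromosome 9, rose): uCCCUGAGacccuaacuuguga
miR-708-5p (chromosome 7, fell): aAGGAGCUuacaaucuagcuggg
miR-365-3p (chromosome 11, fell): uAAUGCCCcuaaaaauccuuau
Among the 21 mature sequences held for 11 called genes, all 21 seeds differ, so no seed is shared. Mir382, Mir679, Mir329 and Mir668 rose by 0.87, 0.66, 0.60 and 0.37, Mirlet7c-1, Mir125b-1 and Mir99a by 0.43, 0.42 and 0.35, and Mir708 and Mir365-2 fell by 0.69 and 0.48.

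The same imprinted domain of chromosome 12 held other rises. Meg3, a maternally expressed long noncoding RNA, stood at 10.41, 10.31 and 10.35 in control and 11.08, 11.11 and 11.23 in LPA. No arrays overlapped, and the rise was 0.79 ± 0.07 (limma, adjusted p = 1.52e-05). Dio3 at the far end of the domain rose by 0.46, whereas Rian (0.33, limma adjusted p = 0.0561) and Rtl1 (-0.09) did not pass. Over all imprinted genes tested, 7 of 19 rose and 1, Mest, fell; 3 or 4 rose without control array 2 or 3 or the LPA array of subject 9.

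HA155 arrays share their controls with the LPA comparison, so the values are given side by side only. Against control, 81 genes were higher in HA155 and 57 lower (0.607% and 0.427% of genes tested). Of the 299 named genes called in LPA against control, 289 also passed in the direct contrast of LPA with HA155, in the same direction. Those genes were picked as called, and the same LPA arrays enter both contrasts, so a high count was largely set in advance. It is no separate evidence. Against control, Cox7a1 differed by -1.84 in LPA and 1.13 in HA155, Ces1d by -2.00 and 1.01, and Rgs2 by -1.19 and 0.42. Each of these 6 values passed the test (limma). Others passed in both with the same sign, as Cxcl9 (-0.95 in LPA and -0.59 in HA155), Mcam (-0.96 and -0.32) and Myh1 (0.98 and 0.64). How many genes went each way was not counted. Ccn1 and Egr1 differed by 0.004 and -0.09 in HA155, with adjusted p of 0.998 and 0.964 (limma).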

How the data were processed

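Total RNA of 9 cultures, 3 per group, was hybridised to Affymetrix mouse gene arrays, per the labels. For each array the deposited table gives the intensity of every probe set, not in logs; the authors made it with RMA, per the submitters' processing notes (version not given in the sources used here). RMA makes the arrays' distributions alike, which would remove a global shift, and often gives equal values across arrays. Precision is limited by how few arrays there are, and a log2 change had a median standard error of 0.08.

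The deposited intensity was put on a log2 scale without an offset. The platform annotation gave 1 symbol for 21706 of 35432 probe sets, several for 1605 (left out) and none here for 12121; 21615 matched a RefSeq gene. The brightest probe set stood for each of 19858 genes, and genes dimmer than the 40th percentile (intensity 48.2) were dropped. Differences were tested two-sided with limma 3.58.1 in R 4.3.3 (lmFit, eBayes, 6 residual degrees of freedom, Benjamini-Hochberg), a script checked on simulated data. The labels name no batch, and subject numbers are not shared between groups.

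The 62 gene lists and 8 marker lists (1730 distinct genes tested; 1 list is not reported here) and the members named were chosen with earlier results of these data known. Named were the 25 largest called changes in each direction without overlap of arrays, up to 4 genes of smallest p per list, every gene of lists of up to 12, and a fixed set, 357 genes in all; other list members and the small RNA group were named after their values were seen. Alternatives were the fit on 6 arrays, other filters, centring, an offset, the mean of probe sets, other priors, array weights and each array left out.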

Additional observations from a re-analysis of the deposited data

How the results depend on the processing

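Of 1621 genes that rose and 1445 that fell, 9 alternatives in filter, scaling, offset, probe set rule and prior left 1180 to 1668 and 1139 to 1694, and leaving out each array in turn left 1135 to 1792 and 1158 to 1621. The median SD of a gene's log2 level was 0.074 in control, 0.107 in LPA and 0.054 in HA155 arrays. The fit on the 6 compared arrays alone, without HA155, left 1180 genes higher and 1139 lower. Changes of at least 1 on the log2 scale stayed between 24 and 45 genes (30 reported) and between 102 and 141 (119 reported). Genes passing against HA155 numbered 273 to 289 over the alternatives with that contrast. Centring arrays on the median turned the split to 1468 higher and 1694 lower and moved the median of all genes from 0.0052 to -0.0188. Of 299 named genes called, 285 kept their call and direction in all 18 alternatives, 14 lost it in at least 1, and 0 changed sign; Pdia4, Lamb2, Uqcrh and Dlk1 lost it most often. No list whose median lay over 0.2 from 0 changed sign. No paired analysis was possible because subject numbers are not shared between groups. Calls near the filter level, such as those of microRNA genes, rest on signal close to background: at the 60th percentile filter 5 microRNA genes and 8 skeletal muscle markers rose.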

Other observations

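The list of angiotensin and natriuretic peptide genes held 5 rises and 0 falls among 11 genes tested. Ace, the angiotensin-converting enzyme, rose by 0.94, the receptors Npr2 and Agtr1a by 0.54 and 0.47, and Npr3, which clears natriuretic peptides, by 0.35. Of 29 antioxidant genes 7 rose and 8 fell, but 5 fell with array weights or without control array 1 or 2. The mitochondrial Prdx3, Sod2 and Txn2 fell by 0.78, 0.56 and 0.38, whereas the secreted Gpx3 and the endoplasmic Gpx8 and Prdx4 rose by 0.67, 0.61 and 0.41 and the metallothionein Mt2 by 0.80. In glycogen metabolism 8 of 21 genes fell, led by Gbe1, the branching enzyme (-1.41), while the lysosomal glucosidase Gaa rose by 0.43. Cholesterol genes fell in 15 of 26 cases, with Insig1 at -0.88 and Scarb1 at -0.96, whereas Srebf2, the factor that drives sterol synthesis, rose by 0.26 and Sqle (0.13) did not pass. Glutathione transferases were mixed, with 5 of 19 falling (Gstz1, -1.38) and Gsta4 rising by 0.43 as the 1 rise (3 rose without the LPA array of subject 8).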
